A study of Rattus norvegicus with 22 samples.

Results

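The response of uninjured rat spinal cord to tamoxifen (TMX) was measured on 11 of the 22 arrays in the series, 5 from Sham/TMX- rats and 6 from Sham/TMX+ rats, taken by their labels alone and compared over all 23188 transcripts. The animals were adult male Long-Evans rats. Sham rats had surgery on the soft tissue over the spine, with neither laminectomy nor contusion, and rats of both groups shared the ketamine and xylazine anaesthesia and the tramadol given against pain. Sham/TMX+ rats received TMX at 5 mg/kg in a single intraperitoneal injection 30 min after surgery, and Sham/TMX- rats received the vehicle, ethyl alcohol in corn oil, by the methods, where the labels give no treatment. Cord tissue freed of dura was taken 24 h after surgery, and each array held the RNA of 1 rat, named here by the animal label. The remaining 11 arrays, 5 SCI/TMX- and 6 SCI/TMX+, came from rats with a weight-drop contusion of the thoracic cord (SCI) that received vehicle or the same TMX dose. The comparison therefore covers 1 dose, 1 time and 1 sex, and the study left out a Sham/TMX- sample for its RNA quality.

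TMX is a selective estrogen receptor modulator, a drug that blocks estrogen receptors in some tissues and activates them in others. It is a prodrug that liver enzymes convert to more potent metabolites, and it also binds proteins outside the receptor family, among them Ebp, a sterol isomerase of cholesterol synthesis. In the spinal cord the estrogen receptors are found in neurons and glia, and oligodendrocytes, which make myelin, are among the cells with the highest rate of cholesterol synthesis.

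The signals were log2 values from robust multi-array averaging (RMA), in which a difference of 1 is a doubling of signal and which carry no call of presence or absence. Array medians lay between 5.44 and 5.47 in both sham groups, and pairs of sham arrays correlated at 0.989 to 0.993 over all transcripts. On the leading principal component of the sham arrays, which held 15.5% of their variance, animals 3a (-20.8) and 4a (-15.8) of Sham/TMX- and 21d (16.9) of Sham/TMX+ lay farthest out. Mean signal of 7 Hox genes of thoracic cord was 6.43 to 6.61 in Sham/TMX- and 6.45 to 6.64 in Sham/TMX+, and that of 14 neuronal genes was 9.14 to 9.19 and 9.05 to 9.26. In tissue of mixed cells, fewer cells of a type and less RNA per cell cannot be told apart.

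At the thresholds used for the TMX contrasts, an unadjusted limma p below 0.05 and a log2 fold change beyond 0.7, 7 of 23188 transcripts (0.0302%) differed between Sham/TMX+ and Sham/TMX-, 5 higher and 2 lower with TMX. They were LOC102546732, Spata18, Aurkb, LOC102551298 and Ccn1 on the higher side and Lcn2 and Hspa1a on the lower side. After Benjamini-Hochberg adjustment over all transcripts, 3 (0.0129%) passed 0.05 in limma, namely LOC102546732, Spata18 and Fam53a, the last with a fold change below the minimum. Leaving out 1 array at a time gave 6 to 16 transcripts past the thresholds, 16 without 6a, 12 without 19d and 11 without 1a, 22d or 23d. The adjusted count was then 1 to 4, and it was 1, LOC102546732, without 1a, 3a, 4a, 5a, 22d, 23d or 24d. No transcript had a log2 fold change beyond 0.7 without also passing the p threshold. The difference was within 0.25 for 94.6% of transcripts, the median absolute difference was 0.08 and its 99th percentile was 0.37. Without the fold minimum, 1265 transcripts (5.46%) had an unadjusted p below 0.05, of which 667 (2.88%) were higher and 598 (2.58%) lower with TMX. The plot of all transcripts shows how few stand apart from the body of points.

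**Figure D1:**
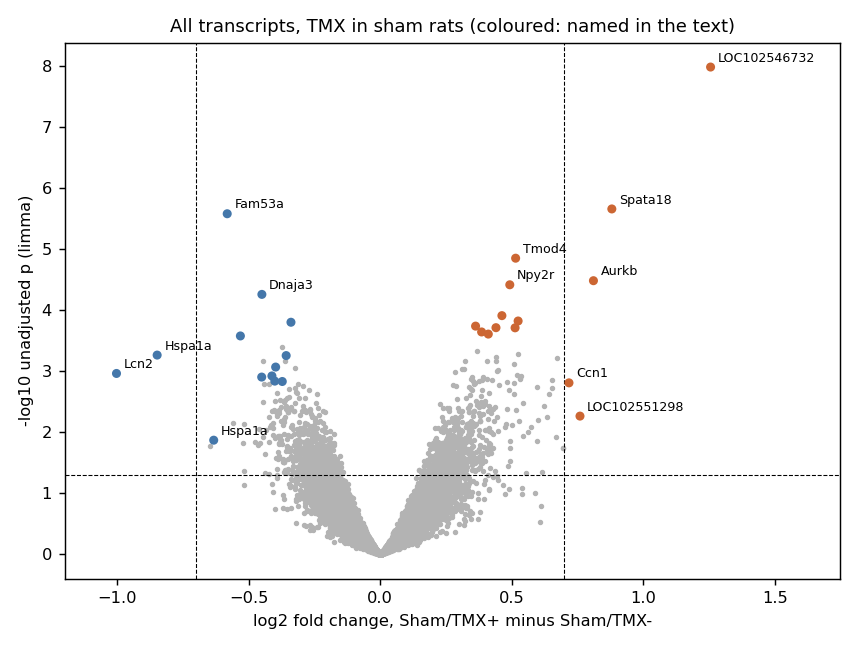
Log2 fold change (Sham/TMX+ minus Sham/TMX-) against -log10 of the unadjusted limma p for all 23188 transcripts, with dashed lines at the thresholds of 0.7 and p 0.05. Coloured points are the transcripts past a threshold and the 12 named transcripts with the smallest p in each direction (orange higher, blue lower with TMX). LOC102546732 lies apart at 1.26, and Lcn2 is the farthest point on the lower side at -1.003.

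Promoter sequences are shown for the pair of annotated genes that passed the adjusted test, Spata18 and Fam53a, and for Mt2A, a metallothionein described with the stress genes below. The sequences are from RefSeq (build GRCr8), from 250 bases before to 50 bases after the gene's start, in the direction of transcription. The estrogen response element GGTCANNNTGACC was searched because it is the DNA site of the receptors that TMX binds. It occurred on either strand in none of the 20 promoters of named genes searched and in 7 of 27457 promoters in all (0.0255%). The same promoters were searched for other sites. Heat shock, NF-kB, serum response (CArG) and p53 sites occurred in 0 of the 20, and each in 1.51% to 8.34% of all promoters. At such shares 20 promoters would hold few or no matches, and the window is short. These counts of 0, that of the estrogen element included, therefore do not show that the genes lack such sites. The antioxidant response element occurred in 5 of the 20 and a loose metal response element in 7. The AP-1 site occurred in 3 and the sterol regulatory element in 1, that of Npy2r, against 1.13% of all promoters for the latter. Capitals mark the matches to the antioxidant response element TGACNNNGC in Spata18 and Fam53a, and to a loose form of the metal response element, TGCNCNC, in Mt2A, on either strand:
Spata18 (chr14:34912655-34912954, strand -): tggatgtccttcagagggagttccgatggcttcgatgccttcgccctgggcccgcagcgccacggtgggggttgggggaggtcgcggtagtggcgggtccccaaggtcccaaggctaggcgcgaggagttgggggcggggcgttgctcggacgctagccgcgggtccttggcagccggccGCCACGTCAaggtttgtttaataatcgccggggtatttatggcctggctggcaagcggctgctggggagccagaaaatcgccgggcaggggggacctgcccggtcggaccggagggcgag
Fam53a (chr14:81315009-81315308, strand +): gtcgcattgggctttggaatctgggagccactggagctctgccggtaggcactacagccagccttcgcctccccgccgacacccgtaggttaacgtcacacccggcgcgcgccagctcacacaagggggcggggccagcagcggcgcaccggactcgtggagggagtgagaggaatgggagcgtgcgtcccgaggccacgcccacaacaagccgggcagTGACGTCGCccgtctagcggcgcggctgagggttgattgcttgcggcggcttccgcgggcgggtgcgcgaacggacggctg
Mt2A (chr19:10838659-10838958, strand -): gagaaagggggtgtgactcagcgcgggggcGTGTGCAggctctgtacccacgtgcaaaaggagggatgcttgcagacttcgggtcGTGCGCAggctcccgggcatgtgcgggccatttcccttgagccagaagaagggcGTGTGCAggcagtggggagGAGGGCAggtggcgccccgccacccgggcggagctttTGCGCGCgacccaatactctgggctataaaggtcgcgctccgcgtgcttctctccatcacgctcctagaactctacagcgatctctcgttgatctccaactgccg
TGACNNNGC occurred in 12.2% of all promoters and TGCNCNC in 50.1%. The Spata18 match ran from base -70 to -62 counted from the start and the Fam53a match from -31 to -23. The Mt2A window held 5 matches to TGCNCNC, a pattern that accepts any base at N, and the 50.1% counts promoters with any match. It also held a match to the AP-1 site TGANTCA, found in 7.33% of promoters, that overlapped a match to TGACNNNGC. A match describes the letters and is not a measured binding site.

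LOC102546732, an uncharacterized locus, had the smallest p of the comparison. Its log2 signal was 5.74, 5.91, 5.45, 6.03 and 6.28 in Sham/TMX- (animals 1a, 3a, 4a, 5a and 6a) and 6.69, 7.21, 6.96, 7.14, 7.56 and 7.28 in Sham/TMX+ (19d to 24d). Every TMX array lay above every vehicle array. The log2 fold change was 1.26 ± 0.15 (SE), which is 2.39-fold (limma adjusted p = 0.000242). The two-sided exact permutation test gave p = 0.00216, the smallest that 462 divisions of the 11 arrays can give. Exact p-values here and below are not adjusted, and most belong to transcripts picked by limma p in the same arrays. They are therefore no separate evidence. Sham groups did not overlap, in either direction, for 1.07% of all transcripts.

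Spata18 encodes a mitochondrial protein that in human and mouse cells takes part in the removal of damaged mitochondria and is a target of p53. Its log2 signal was 3.06, 3.64, 3.61, 3.40 and 3.94 in Sham/TMX- and 4.47, 4.39, 3.86, 4.65, 4.57 and 4.53 in Sham/TMX+. The groups overlapped through animal 21d, which lay below vehicle animal 6a, and the other 5 TMX arrays lay above all vehicle arrays. The difference was 0.88 ± 0.14 (SE), 1.84-fold (limma adjusted p = 0.0204; exact permutation test, two-sided, p = 0.00649). With only the 11 sham arrays in the fit the limma adjusted p was 0.194. Spata18 was the only 1 of 18 measured p53 targets on the list that passed p 0.05, where 2.91% of named genes were higher and 2.46% lower. Cdkn1a (-0.02), Mdm2 (0.18) and Ccng1 (-0.01) did not pass. Spata18 is also abundant in ciliated cells, and the mean signal of 8 ependymal genes was 3.71 to 4.21 in Sham/TMX- and 3.74 to 4.30 in Sham/TMX+. In 21d that mean was 3.74 and in 6a 4.21, the lowest of the TMX arrays and the highest of the vehicle arrays, as with Spata18 itself, and the part of ciliated cells in the Spata18 difference was not tested.

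Aurkb, the kinase of the chromosomal passenger complex in mitosis, had a log2 signal of 5.45, 5.55, 5.13, 4.56 and 5.86 in Sham/TMX- and 5.85, 6.21, 6.01, 6.13, 6.17 and 6.36 in Sham/TMX+. The vehicle arrays spread widely, with animal 5a low, and the groups overlapped by a margin of 0.01 between 6a and 19d. With TMX it was higher by 0.81 ± 0.16 (SE) (limma adjusted p = 0.148; exact permutation test, two-sided, p = 0.00433). Without animal 5a it was 0.62, below the fold minimum. Its partners in the complex did not pass p 0.05, with Birc5 at -0.27, Incenp at -0.09 and Cdca8 at 0.00. Of 36 measured genes of mitosis and DNA replication, 1 was higher (Aurkb) and 2 lower (Ccne1 and Kif23) at p 0.05, against 2.91% higher and 2.46% lower over 15161 named genes, and 24 of the 36 differences were below 0 (median -0.09). The proliferation markers Mki67 (-0.36) and Top2a (-0.21) did not pass p 0.05.

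Ccn1, a secreted matricellular protein and an immediate early gene, had a log2 signal of 4.25, 4.09, 3.98, 4.33 and 4.21 in Sham/TMX- and 5.11, 4.59, 4.85, 4.64, 4.76 and 5.39 in Sham/TMX+. All TMX arrays lay above all vehicle arrays. The difference of 0.72 ± 0.20 (SE) was just past the minimum (limma adjusted p = 0.605; exact permutation test, two-sided, p = 0.00216). It was as low as 0.62 without animal 24d, and it was also under the minimum without 3a, 4a or 19d. Of 28 immediate early genes, 2 were higher (Ccn1 and Dusp1) and 3 lower (Atf3, Klf4 and Fosl1) at p 0.05, against 2.91% and 2.46% of named genes, and the median was 0.00.

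LOC102551298 is a locus similar to the envelope polyprotein of a murine leukaemia virus provirus. Its log2 signal was 4.69, 4.94, 4.82, 4.79 and 5.44 in Sham/TMX- and 4.98, 5.93, 6.45, 5.76, 5.24 and 5.82 in Sham/TMX+. Animal 6a was high among the vehicle arrays, 19d and 23d were low among the TMX arrays, and the groups overlapped. The mean difference was 0.76 ± 0.25 (SE) (limma adjusted p = 0.741; exact permutation test, two-sided, p = 0.0238), and it was below the minimum without 1a (0.70) or 21d (0.61). It is 1 of 4 transcripts of this kind on the array, of which 3 were higher at p 0.05 (median 0.70), against 2.91% of named genes. LOC102552104 and LOC102555039 carried identical values in every array, at 0.70 ± 0.28 (SE), so they are 1 measurement, and such near-identical proviral copies can share signal. Without animal 5a, or without 3a and 4a together, 1 of the 4 was at p 0.05.

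Lcn2, a secreted protein that binds iron-carrying siderophores and is released by neutrophils and reactive astrocytes, was the transcript with the largest fall. Its log2 signal was 5.91, 6.18, 6.10, 6.08 and 6.45 in Sham/TMX- and 5.52, 4.83, 4.75, 5.09, 4.70 and 5.96 in Sham/TMX+. The TMX arrays were the more spread (SD 0.50 against 0.20), and the groups overlapped only through animal 24d. The log2 fold change was -1.003 ± 0.27 (SE), a signal 2.00-fold lower (limma adjusted p = 0.605; exact permutation test, two-sided, p = 0.00649). The call was kept without any 1 of the 11 arrays, with values from -1.17 to -0.92.

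Neutrophil genes were given beside Lcn2 because that cell type stores the protein. Of 10 measured neutrophil genes, 8 were below 0 with a median of -0.15, and 2 were lower at p 0.05, Elane (-0.25) and Mmp8 (-0.35), against 2.46% of named genes. S100a8 (-0.21) and S100a9 (-0.26), the subunits of calprotectin, did not pass. The mean signal of the 10 genes was 3.87 to 4.29 in Sham/TMX- and 3.77 to 3.95 in Sham/TMX+, and no member passed without 3a, 5a or 22d. The count was 1 without any other single array but 6a, and without 3a and 4a together it was 0 with a median of -0.08. Of 22 genes of reactive astrocytes, 3 were higher (Cd109 0.64, Cp 0.35 and Cd44 0.27) and 2 lower (Lcn2 and Sphk1, -0.28), against 2.91% and 2.46% of named genes, with a median of 0.09. The part of either cell type in the Lcn2 difference was not tested. Of 29 acute phase and inflammation genes, 3 were higher (Ccl3 0.43, Lbp 0.67 and Ptgs2 0.49) and 3 lower (Lcn2, C3 -0.44 and Cebpb -0.35) (median 0.02), against the same 2.91% and 2.46%.

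Hspa1a, the inducible chaperone Hsp70, had a log2 signal of 5.67, 6.95, 6.97, 5.85 and 5.87 in Sham/TMX- and 5.41, 5.56, 5.44, 5.12, 5.28 and 5.67 in Sham/TMX+. Animals 3a and 4a stood more than 1 unit above the other 3 vehicle rats, and the highest TMX array, 24d, lay just under the lowest vehicle array, 1a. The groups differed by -0.85 ± 0.21 (SE) (limma adjusted p = 0.574; exact permutation test, two-sided, p = 0.00216). Without 3a and 4a it was -0.38, below the fold minimum, and the call was also lost without either of them alone. Another transcript of Hspa1a differed by -0.63 ± 0.24 (SE), and was likewise highest in 3a (5.65) and 4a (5.22). Hspa1a has a near-identical copy in the genome, so its signal may come from both.

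**Figure D2:**
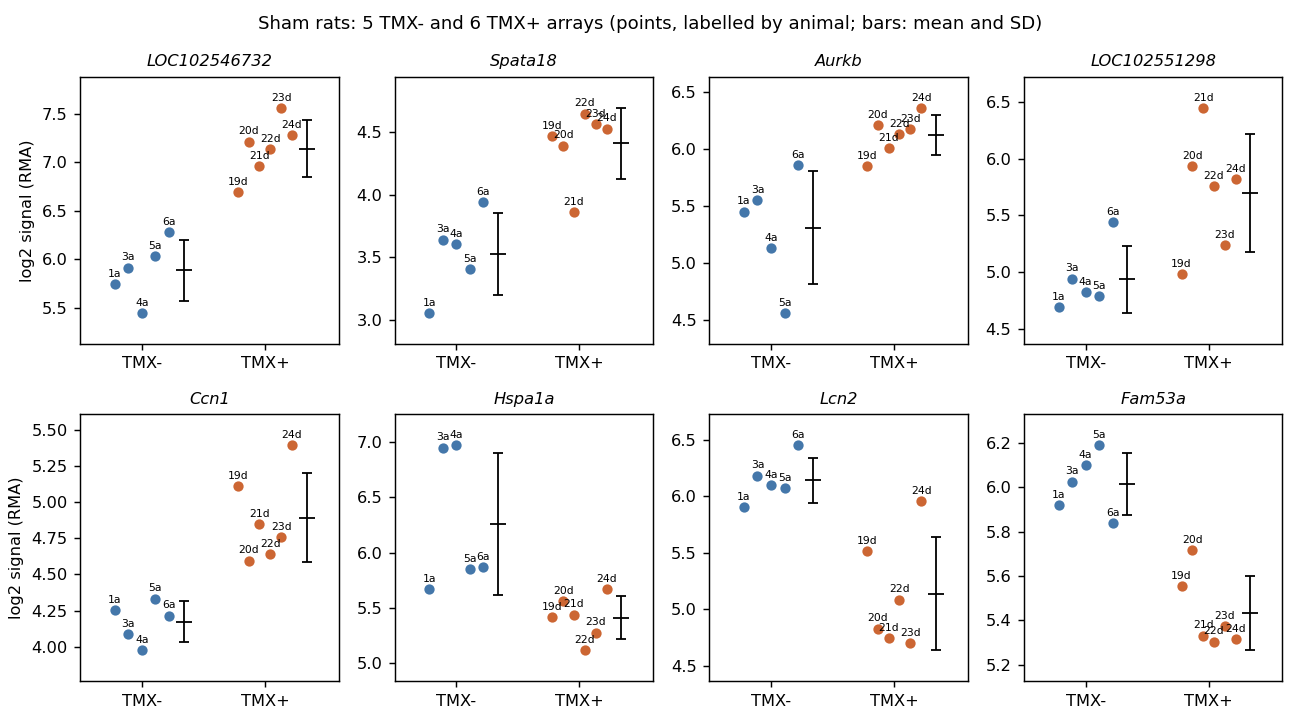
Log2 signal on each sham array (points, labelled by animal; 5 Sham/TMX- blue, 6 Sham/TMX+ orange) with the mean and SD beside each group, for the 7 transcripts past the thresholds and Fam53a. The groups are apart for LOC102546732, Ccn1, Hspa1a and Fam53a and overlap in the others, and 3a and 4a carry the high Hspa1a values.

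Fam53a, a nuclear protein of little known function, had a log2 signal of 5.92, 6.03, 6.10, 6.19 and 5.84 in Sham/TMX- and 5.55, 5.72, 5.33, 5.30, 5.37 and 5.32 in Sham/TMX+. Every TMX array lay below every vehicle array. The log2 fold change was -0.58 ± 0.10 (SE) (limma adjusted p = 0.0204; exact permutation test, two-sided, p = 0.00433). With only the 11 sham arrays in the fit the limma adjusted p was 0.153, and with the replicate number as a block it was 0.0942.

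Among the 12 named transcripts with the smallest p in each direction, the higher set held, beside those above, genes of several roles with log2 fold changes of 0.36 to 0.52. Tmod4, a tropomodulin that caps actin filaments in skeletal muscle, was 4.29 to 4.66 in Sham/TMX- and 4.90 to 5.32 in Sham/TMX+ (log2 fold change 0.51, limma adjusted p = 0.0818), and Pygm, the glycogen phosphorylase of muscle that astrocytes also use, was 9.53 to 9.71 and 9.89 to 10.15 (0.36, adjusted p = 0.347). The groups of both genes were apart. Of 16 muscle genes measured, Tmod4 was the only 1 higher at p 0.05 and Tnnt1 (-0.29) the only 1 lower, against 2.91% and 2.46% of named genes. Differences were below 0 for 10 of the 16, with Ckm at -0.15 and Acta1 at -0.21. The mean signal of the 16 was 4.35 to 4.50 in Sham/TMX- and 4.37 to 4.48 in Sham/TMX+.

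Npy2r, a receptor for neuropeptide Y and peptide YY, was 3.81 to 4.17 in Sham/TMX- and 4.30 to 4.83 in Sham/TMX+, with no overlap (log2 fold change 0.49, limma adjusted p = 0.148). Its ligand Npy (0.06) and the receptors Npy1r (0.03) and Npy5r (0.12) did not pass p 0.05. Galanin (Gal), a neuropeptide induced by estrogen in the pituitary, had a log2 signal of 5.52, 6.07, 5.88, 5.74 and 6.19 in Sham/TMX- and 6.79, 6.62, 6.75, 6.63, 5.99 and 6.53 in Sham/TMX+. Only animal 23d fell among the vehicle values, and the log2 fold change was 0.67 ± 0.17 (SE) (limma adjusted p = 0.574; exact permutation test, two-sided, p = 0.00866). Of 30 neuropeptides and receptors, 3 were higher (Npy2r, Gal and Tacr3, the neurokinin B receptor) and 2 lower (Tac1, the substance P precursor, -0.27, and Cck -0.15), against 2.91% and 2.46% of named genes.

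The rest of the higher set was Dync2h1, the motor of transport within cilia (0.41), Tmbim1, a membrane protein of lysosomes and the Golgi (0.39), Mall, a lipid raft protein related to myelin Mal (0.52), Commd8 (0.44), Lrrc9 (0.46) and the olfactory receptor Or10d4 (0.51). Adjusted p in limma was 0.347 to 0.381 for these 6. Sham groups did not overlap in Dync2h1, Tmbim1 and Commd8.

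On the lower side, Dnaja3, a co-chaperone of mitochondrial Hsp70, was 6.43, 6.39, 6.52, 6.49 and 6.44 in Sham/TMX- and 6.06, 6.06, 6.01, 5.96, 5.98 and 5.95 in Sham/TMX+. The groups were far apart against an SD of 0.05 in each, and the log2 fold change was -0.45 ± 0.09 (SE) (limma adjusted p = 0.183, and 0.0459 with only the 11 sham arrays in the fit). Others were Bex3, an adaptor of the neurotrophin receptor p75 (-0.34), Cyp2g1, a cytochrome P450 of the olfactory mucosa (-0.53), Zbtb10, a zinc finger repressor (-0.36), Tulp1, known from photoreceptors (-0.40), Ptms, parathymosin (-0.41), Hoxa11, a posterior homeobox gene (-0.45), Ciapin1, which acts in iron-sulfur cluster assembly (-0.40), and the growth factor Fgf8 (-0.37). Adjusted p in limma was 0.347 to 0.605 for these 8. Of the 24 transcripts in both directions, 15 had groups that did not overlap, against 1.07% of all transcripts; they were chosen by p in the same arrays, so that count is no separate evidence.

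The targets of TMX were measured next. The estrogen receptors did not pass p 0.05. Esr1 was 3.66 to 4.19 in Sham/TMX- and 3.93 to 4.32 in Sham/TMX+, a difference of 0.18 ± 0.10 (SE), while Esr2 differed by 0.15 ± 0.17 (SE) and the membrane receptor Gper1 by -0.17 ± 0.16 (SE). Of 25 genes known to respond to estrogen, 2 were higher (Gal and Igf1, 0.36) and 1 lower (C3), against 2.91% and 2.46% of named genes, with a median of 0.04. The progesterone receptor Pgr, a classical target, differed by -0.11 and did not pass. Of 20 genes of drug metabolism and transport, only Cyp2g1 passed. Ebp, which TMX binds, was 7.54, 7.36, 7.38, 7.55 and 7.71 in Sham/TMX- and 7.67, 7.88, 7.75, 7.95, 7.74 and 7.80 in Sham/TMX+. The groups overlapped only between 6a and 19d, and the log2 fold change was 0.29 ± 0.10 (SE) (limma adjusted p = 0.786; exact permutation test, two-sided, p = 0.00433).

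Ebp was 1 of 3 of the 19 measured genes of cholesterol synthesis that were higher at p 0.05, with none lower, against 2.91% and 2.46% of named genes. The others were Lss, the synthase that closes the sterol rings (0.31 ± 0.12 SE), and Nsdhl, a sterol dehydrogenase (0.26 ± 0.10 SE). Lss was 7.62, 7.61, 7.60, 7.64 and 7.79 in Sham/TMX- and 7.68, 8.05, 7.99, 8.13, 7.88 and 8.03 in Sham/TMX+. Animal 6a was the highest vehicle array and 19d the lowest TMX array for Lss as for Ebp. In the list 15 differences were above 0 and 4 below, the median was 0.09 against 0.00 over named genes, and Cyp51 (0.21), Fdft1 (0.17), Sqle (0.13), Idi1 (0.08) and Dhcr7 (0.07) did not pass. The count stayed at 3 or 4 without any 1 array, and it was 0, with a median of 0.06, without 3a and 4a together. Of 21 genes of fatty acid metabolism, 3 were higher, Scd (0.24), Acaca (0.21) and Ehhadh (0.27), with a median of -0.01.

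Of 12 oligodendrocyte and myelin genes, 4 were higher at p 0.05, none was lower and 8 did not pass, against 2.91% higher and 2.46% lower over named genes. The 4 were Mal (0.29), Ugt8, which makes the lipid galactosylceramide (0.25), Mag (0.19) and Mog (0.19), and the median was 0.16. Mog was 10.36, 10.49, 10.47, 10.48 and 10.59 in Sham/TMX- and 10.57 to 10.72 in Sham/TMX+, with a median of 10.68. Its groups overlapped only between 6a and 19d. Mbp (0.03) and Mobp (0.06), which encode structural proteins of compact myelin, did not pass. Of 8 precursor genes, Gpr17, a receptor of cells that are committing to the oligodendrocyte lineage, was higher (8.96 to 9.23 against 9.25 to 9.66, log2 fold change 0.40 ± 0.11 SE), as was the transcription factor Olig1 (0.18 ± 0.09 SE), and neither had groups that overlapped. The myelin count was 1 without animal 1a, 5 without 6a or 19d, and 1 without 3a and 4a together. The precursor count was 1 without any single array other than 4a. Adjusted p was at least 0.605 for all 6 of these genes.

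Chaperones and stress response genes were counted as separate lists. Of 22 heat shock chaperones and their partners, 2 were lower at p 0.05, Hspa1a and Hspd1, the mitochondrial chaperonin (-0.19), none was higher and 20 did not pass, against 2.46% of named genes lower, and 18 of the 22 were below 0 with a median of -0.07. The count was 1 without 4a, 22d, 23d or 24d. The constitutive Hspa8 (-0.01) and Hsp90aa1 (-0.10) did not pass. The mean signal of the list was highest in 3a (8.27) and 4a (8.25), against 8.09 to 8.16 in the other vehicle rats and 8.00 to 8.12 in the TMX rats. Without 3a and 4a together the count was 2 and the median was -0.05.

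Of 18 genes of the unfolded protein and integrated stress responses, 3 were lower and none higher, with 15 not past the test, against the same 2.46%. They were the transcription factors Atf4 (-0.23), Ddit3 (-0.28) and Atf3 (-0.40). Atf4 was 9.11, 8.93, 9.06, 8.94 and 8.89 in Sham/TMX- and 8.63, 8.85, 8.81, 8.73, 8.72 and 8.80 in Sham/TMX+. All TMX arrays lay below all vehicle arrays (limma adjusted p = 0.741; exact permutation test, two-sided, p = 0.00216). Known targets of Atf4 such as Asns (0.08) and Trib3 (-0.18) did not pass, nor did the chaperone Hspa5 (-0.06), and the list had 8 differences above 0 and 10 below with a median of -0.01. Of 24 mitochondrial chaperones and quality control genes, 1 was higher (Spata18) and 2 lower (Dnaja3 and Hspd1), against 2.91% and 2.46% of named genes, with 15 of 24 below 0 and a median of -0.07.

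Metallothioneins bind zinc and copper and respond to metals and glucocorticoids. Mt1a and Mt2A are on the glucocorticoid list, and the other 4 named members of the family were added after values were seen. Mt1a was 8.15, 8.06, 8.28, 8.06 and 8.44 in Sham/TMX- and 8.72, 8.81, 8.78, 8.42, 9.04 and 9.16 in Sham/TMX+. Only animal 22d fell among the vehicle values, and the log2 fold change was 0.62 ± 0.19 (SE) (limma adjusted p = 0.70; exact permutation test, two-sided, p = 0.00649). Mt2A, whose promoter is printed above, was 10.85 to 11.05 in Sham/TMX- and 11.11 to 11.50 in Sham/TMX+, with no overlap (0.34 ± 0.12 SE, limma adjusted p = 0.787). Mt1 (0.57) and Mt1m (0.38) were also higher at p 0.05 with no overlap, while Mt3 (-0.07) and Mt4 (0.26) did not pass. Members of this family are close copies and can share signal, so the 4 may not be separate measurements. Of 23 glucocorticoid-induced genes, Mt1a, Mt2A and Dusp1 (0.49) were higher, none was lower and 20 did not pass, against 2.91% higher and 2.46% lower over named genes. The median was 0.02, and Fkbp5, a sensitive glucocorticoid target, differed by -0.09. Without 3a or 21d, 2 glucocorticoid-induced genes were higher. Sgk1, another target of that hormone, was among the 5 genes with the widest range, from 7.57 to 9.99, and was high in 4a and 5a as in 21d and 23d, with no difference past the test (0.37 ± 0.32 SE).

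**Figure D3:**
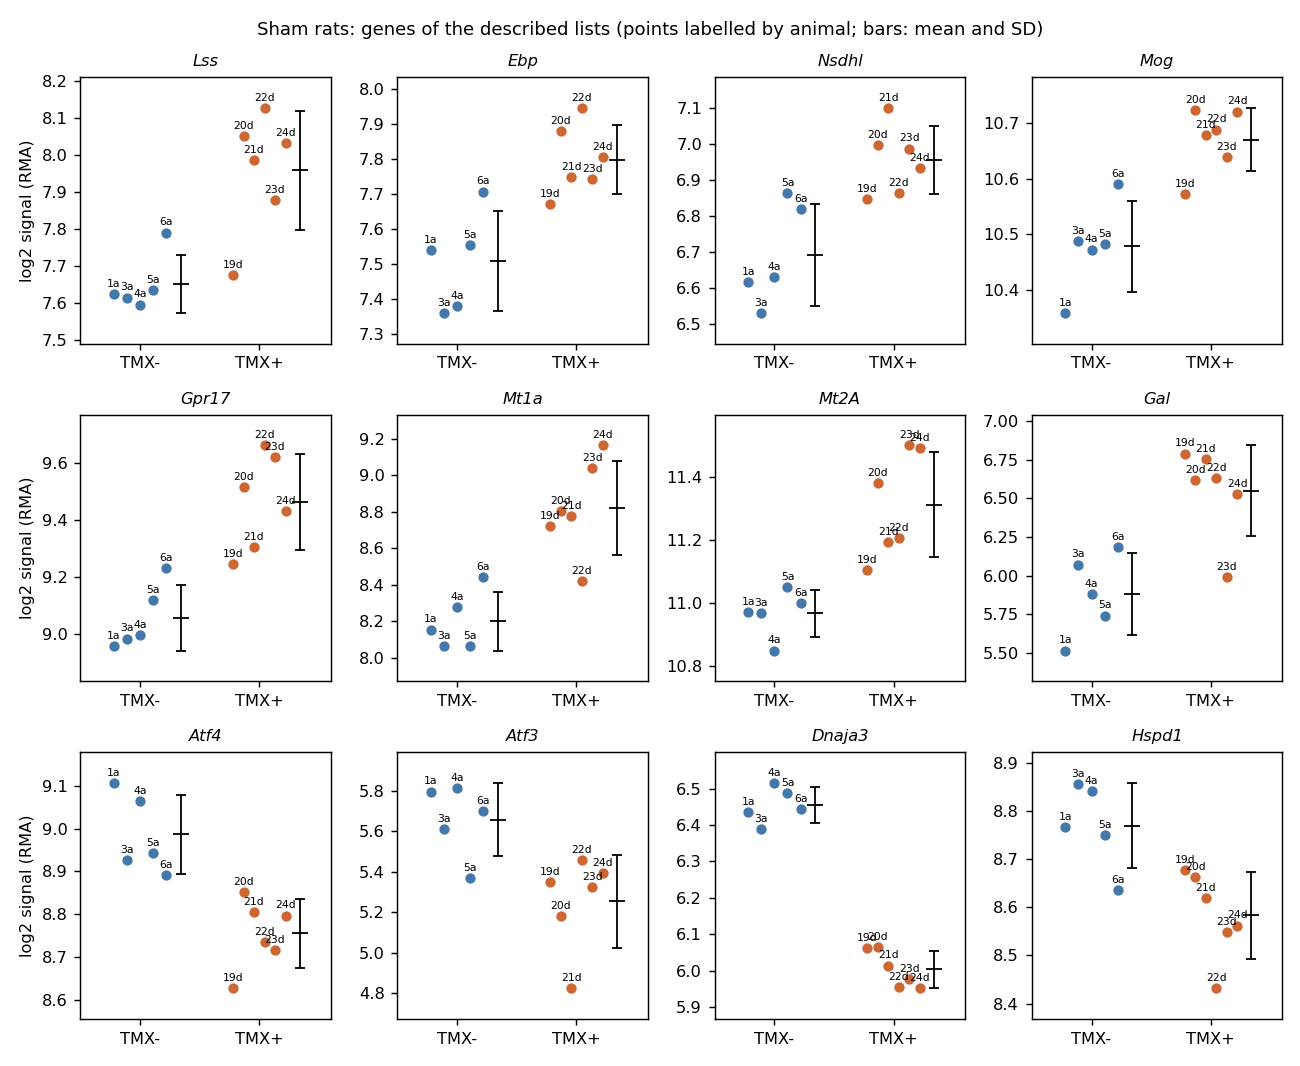
Log2 signal on each sham array (points labelled by animal; 5 Sham/TMX- blue, 6 Sham/TMX+ orange; bars are mean and SD) for 12 genes of cholesterol synthesis, myelin, precursors, metallothioneins, neuropeptides and protein stress. Lss, Ebp, Mog and Gpr17 share a high 6a and a low 19d, and in Dnaja3 and Atf4 the groups are apart.

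Of 30 interferon-stimulated genes, 3 were higher, Oas1a (0.50), Oas1b (0.42) and Irf7 (0.39), none was lower and the median was 0.02. For these and the following lists, 2.91% of named genes were higher and 2.46% lower. Without 23d, 1 was higher, and without 3a and 4a together 1 was higher and 1 lower. Of 26 lysosome and autophagy genes, only the protease Ctsl was higher (0.25). Cell type lists gave few members past p 0.05. There were none among 14 neuronal, 6 motor neuron, 13 resting astrocyte, 10 microglial, 12 meningeal, 8 red cell and 7 adipocyte genes, although 12 of the 13 astrocyte genes were above 0 (median 0.08) and 8 of the 10 microglial genes below it (median -0.05). Of 11 monocyte and macrophage genes, Cd163, the haemoglobin scavenger receptor, was higher (0.39). There was 1 member higher among 7 lymphocyte genes (Cd3d 0.33), 10 pericyte genes (Pdgfrb 0.25) and 8 ependymal genes (Tmem212 0.49), and 1 lower among 11 endothelial genes (Emcn -0.31). Of 8 Schwann cell genes, Pmp2, a fatty acid carrier of peripheral myelin, was lower (-0.65), with 4a (6.99) and 5a (6.53) above the other arrays. The haemoglobin genes Hba-a1 and Hba-a3 were among the 5 with the widest range, both highest in 23d (10.11 and 6.90), as was the chemokine Cxcl13, from 3.47 to 6.06 with 22d highest, and Bbox1, the enzyme of the last step of carnitine synthesis, ran from 2.21 in 4a to 4.58 in 6a. None of these 4 passed between the groups.

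**Figure D4:**
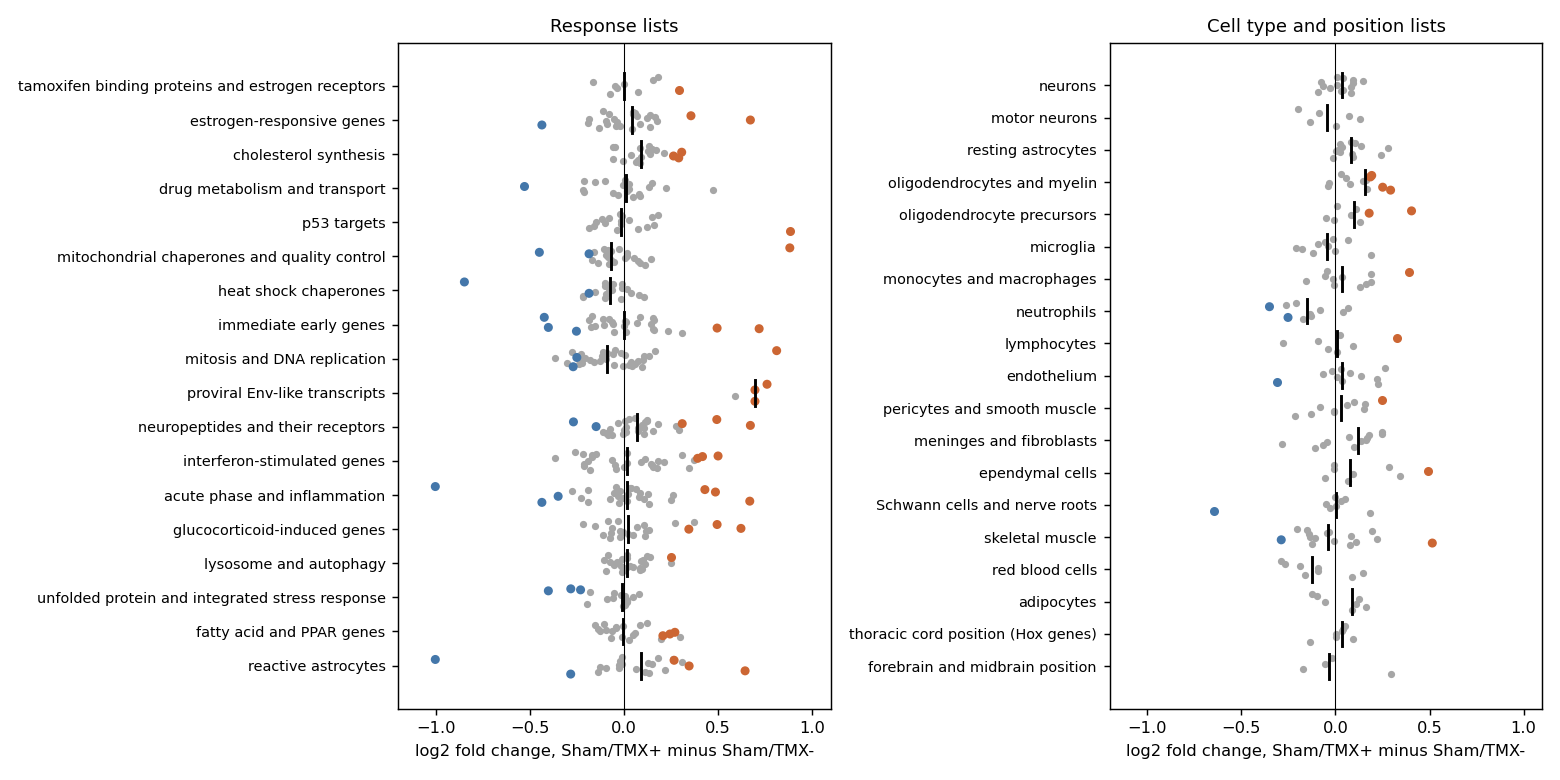
Log2 fold change (Sham/TMX+ minus Sham/TMX-) of each measured member of 18 response lists and 19 cell type or position lists. Points are genes, coloured at an unadjusted limma p below 0.05 (orange higher, blue lower), and black lines are list medians, which lie within 0.16 of 0 in all lists but the 4 proviral transcripts (0.70).

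The same drug was also given to injured rats, whose arrays are in neither sham group but enter the same limma fit. Of the 7 called above, 3 differed in the same direction with TMX in SCI rats, and 1, Lcn2, passed the thresholds there, in the opposite direction, against 0.129% of all transcripts in SCI rats. Lcn2 was -1.003 with TMX in sham rats and 0.78 ± 0.27 (SE) in SCI rats, and the difference between these effects was 1.78 (interaction in limma, adjusted p = 0.314). Without animals 13c and 15c of SCI/TMX- the SCI value was 0.33. By itself the injury raised Lcn2 by 3.61 in vehicle rats, with Sham/TMX- as the shared baseline.

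Spata18 was -0.24 ± 0.14 (SE) in SCI rats, and the difference of the effects was -1.12 (interaction in limma, adjusted p = 0.229, the smallest over all transcripts). LOC102546732 was 0.27 in SCI rats (interaction in limma, adjusted p = 0.314), Aurkb -0.11, Ccn1 -0.00 and Hspa1a -0.28. The signal of LOC102546732 was on average lower in SCI than in sham arrays, and RMA values compress low signals. What part the signal level has in its smaller SCI difference was not tested. LOC102551298 was 0.70 ± 0.25 (SE) in SCI rats, the nearest to its sham value, and the 4 proviral transcripts were all higher there at p 0.05 (median 0.83), against 6.54% of named genes. Fam53a was -0.00 ± 0.10 (SE) in SCI rats. No interaction passed an adjusted p of 0.05 in limma over all transcripts, while 1585 (6.84%) had an unadjusted p below 0.05.

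Of the 24 transcripts with the smallest p, 12 kept their sign in SCI rats, and 18 had an interaction p below 0.05. They were chosen by the sham contrast, which the interaction contains, so that count is no separate evidence. Over all transcripts at p 0.05, 12.0% of the 667 that were higher with TMX in sham rats were higher in SCI rats too, where 5.94% of all transcripts were, and 6.15% were lower, where 4.51% were. Of the 598 lower in sham rats, 7.69% were lower and 4.01% higher in SCI rats. Both contrasts use the same estimate of each transcript's spread, so a transcript with a small estimate can pass in both. What part of these overlaps comes from that was not tested.

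The lists were set side by side in the same way. In SCI rats, 6 of 19 cholesterol synthesis genes were lower with TMX at p 0.05 and none higher, against 4.5% and 6.54% of named genes (median -0.15), with Ebp at -0.22 and Lss at -0.29, and 7 of the 19 had an interaction p below 0.05, Ebp and Lss among them, where 6.83% of named genes did. Ugt8 was 0.25 in sham and -0.26 in SCI rats, and Gpr17 was 0.40 and -0.03, each with an unadjusted interaction p below 0.05. Mt1a was higher in both, 0.62 and 0.81 ± 0.19 (SE), and of 23 glucocorticoid-induced genes 13 were higher with TMX in SCI rats and 3 in sham rats, and 9 had an interaction p below 0.05. Atf4 was -0.23 in sham and 0.04 in SCI rats, and Dnaja3 was -0.45 and 0.02, again with an unadjusted interaction p below 0.05 for each. Lss, Ugt8, Gpr17, Atf4 and Dnaja3 were named for a small p in the sham contrast, which the interaction contains. Their interaction p, like that of Ebp, is therefore no separate evidence. The interaction counts of the lists contain the sham contrast too.

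**Figure D5:**
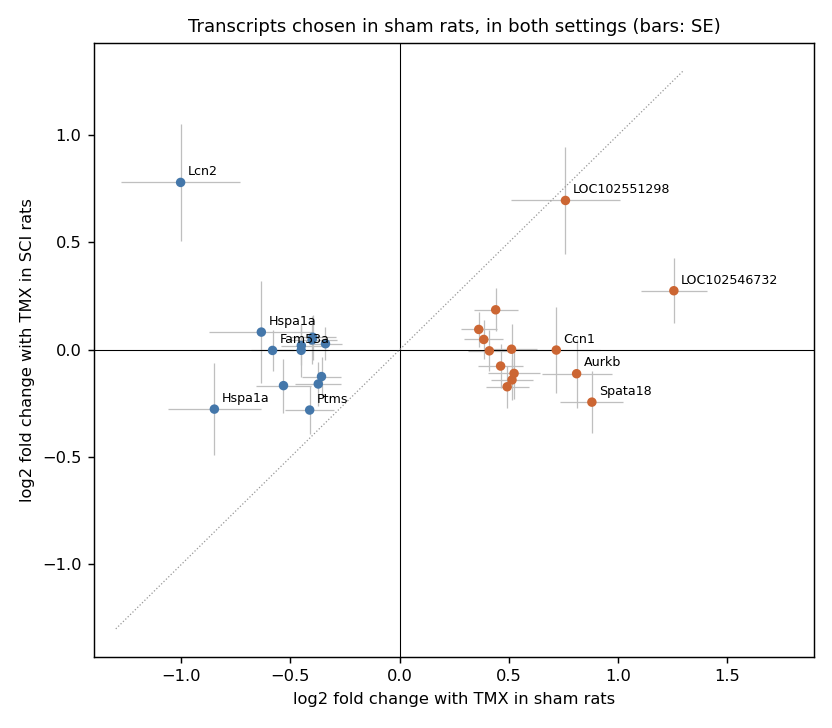
Log2 fold change with TMX in sham rats (x axis) and in SCI rats (y axis), with SE bars, for the 7 called transcripts, Fam53a, the other Hspa1a transcript and the 12 named transcripts with the smallest p in each direction; the dotted line marks equal effects. LOC102551298 lies near that line (0.76 and 0.70), Lcn2 has opposite signs (-1.003 and 0.78), and most others lie near 0 in SCI rats.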

How the data were processed

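RNA of 22 spinal cords, 1 rat per array, was hybridised to Clariom S rat arrays. The authors normalised them with RMA in oligo 1.56 and deposited log2 values for 23188 transcripts; nothing further was done to them before testing. Gene names came from the platform annotation (15049 transcripts) and the study's tables (143, of which Hspa1a and LOC102551298 past the thresholds were matched by direction, as the only unnamed ones), and 443 transcripts share all values with another. The 22 arrays were fitted as 4 groups in limma 3.58.1 (R 4.3.3; 18 residual degrees of freedom), so SCI arrays inform the spread, and p-values were adjusted over all transcripts by Benjamini-Hochberg. The thresholds are those of the study's TMX contrasts. For lists, each gene was read from its brightest transcript (15161 genes; 552 of 616 list genes measured). Named were transcripts past a threshold, the 12 smallest p per direction, the TMX targets, the up to 3 smallest p and the defining genes of each list, and the 5 widest ranges; other receptors, complex partners and targets were added for context. Members and lists were chosen with earlier results of these data known. Data were also simulated for 23188 transcripts, with independent normal noise at each transcript's mean and fitted spread. The thresholds called 2 of 50 at a log2 change of 0.5, 24 of 50 at 0.7, 49 of 50 at 1 and 0 of 22988 unchanged. Without the fold minimum, 25 of 50 at 0.5 and 49 of 50 at 0.7 passed a limma adjusted p below 0.05. Of the unchanged, 2 passed an adjusted p below 0.05. No simulated array stood apart as 3a and 4a do for Hspa1a, so the 0 gives no rate of false calls in these data. The number of arrays limits the precision; labels give no scan date, so no batch could be examined. Probe sequences were not used here.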

Additional observations from a re-analysis of the deposited data

Results flagged for a closer look

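In 16 of 240 gene and group pairs, 1 array stood far from the others of its group by Dixon's criterion, which flags about 1 in 20 groups by chance. Among Sham/TMX+ arrays, animal 21d was low for Spata18 (3.86, others 4.39 to 4.65) and high for Npy2r (4.83, others 4.30 to 4.44) and Dusp1 (8.48, others 7.28 to 7.57), and low for Tmem212, an ependymal gene (3.77, others 4.64 to 5.05). Animal 22d was high for Igf1 (8.00, others 7.20 to 7.43), Ctsl (8.63, others 8.28 to 8.38) and Cxcl13 (6.06, others 3.77 to 4.59). Animal 23d was low for Gal (5.99, others 6.53 to 6.79) and 19d for Mal (10.06, others 10.25 to 10.34). Among Sham/TMX- arrays, animal 6a was high for Lss (7.79, others 7.60 to 7.64) and Oas1a (3.84, others 3.39 to 3.50) and low for Cebpb (4.78, others 5.14 to 5.27). Animal 4a was low for Tmod4 (4.29, others 4.57 to 4.66) and high for Hoxa11 (4.05, others 3.19 to 3.42). Animal 1a was low for Kif23 (3.97, others 4.22 to 4.33) and 5a for Npy (6.22, others 6.63 to 6.77). The arrays 3a and 4a did not meet the criterion for Hspa1a, since they lie close to each other.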

How the results depend on the processing

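The 7 transcripts past the thresholds became 4 with transcripts of low signal left out, 1265 with no fold minimum, 46 at a minimum of 0.5 and 3 at an adjusted p below 0.05. Without 1 array they were 6 to 16. The 3 at an adjusted p below 0.05 became 6 with a trended, robust prior, 7 with array weights, 1 with low signal left out, 1 without animals 3a and 4a together (chosen after seeing the data) and 1 to 4 without 1 array. The 1 with low signal left out was Fam53a (limma adjusted p = 0.0155), and LOC102546732 and Spata18 were among the transcripts that this filter removed. The filter used the mean signal over all arrays, SCI arrays included. LOC102546732 had on average a lower signal in SCI than in sham arrays, so its removal does not show a low signal in sham cord. With only sham arrays fitted the 3 became 2, LOC102546732 (limma adjusted p = 0.0205) and Dnaja3 (0.0459). Spata18 (0.194) and Fam53a (0.153) no longer passed. The 1265 at an unadjusted p below 0.05 became 1904 with only sham arrays fitted, 2088 with array weights, 730 with low signal left out, 826 with 1 transcript per gene and 1078 to 1410 without 1 array. The 1 transcript also past the thresholds in SCI rats became 0 without 13c and 15c. Same-numbered sham arrays did not deviate together (correlations -0.09 to 0.03), and with the replicate number as a block the counts were 8, 2 and 1287, Ccn1 was 0.65 and the limma adjusted p of Fam53a was 0.0942. Over 31 named transcripts and 20 settings, 587 of 604 values kept direction and side of the threshold, 15 no longer passed, 2 newly passed (Esr1 at 0.19 with array weights and 0.24 without 4a) and 0 changed direction. Of 481 list medians, 4 moved by more than the spread between arrays. The cause of these changes was not tested beyond the fewer transcripts or arrays. With 5 and 6 arrays and independent normal noise, simulated log2 changes of 0.7 were called in 24 of 50 cases. A change equal to the fold minimum is estimated on either side of it, and 49 of these 50 passed a limma adjusted p below 0.05. RMA values compress low signals.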
